A study of Homo sapiens with 2 samples.

Results

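The TRIM and TRIML genes were compared between A549 cells kept in static culture for 4 h and A549 cells kept in stretch culture for 4 h. A549 is an established human lung adenocarcinoma line. Each condition was represented by 1 Affymetrix array, so no value below has a replicate, no test across samples exists, and a difference describes this pair of arrays. One label of the stretched sample, its title, writes the line as A594, whereas its source name has A549. The device, amplitude and rate of the stretch, and how many cultures gave each RNA, are not stated in the labels read here. The members were all genes whose annotated symbol begins with TRIM or TRIML and a number, without pseudogenes. They numbered 63 among 14884 genes named on the array. RefSeq lists 78 protein-coding genes under such symbols, and the other 15, among them TRIM23, TRIM39, TRIM63 and TRIM71, are unnamed here and were not analysed.

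TRIM proteins share an N-terminal array of a RING finger, B-box zinc fingers and a coiled coil. The RING finger makes most of them ubiquitin ligases, the enzymes that select proteins for ubiquitin tagging, and the C-terminal domain, most often PRY-SPRY, largely sets what they bind. The family is known for antiviral restriction, for tuning RIG-I, STING and NF-κB signalling, for transcriptional repression through TRIM28 and its relatives, and for protein turnover in muscle. The series title names tumour necrosis factor alpha, and several members act on its signalling.

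Among the 63 members, 21 were at least 1.5-fold higher on the stretched array, 3 stood 1.5-fold or more lower and 39 lay between. Over all 14884 named genes, 20.7% reached 1.5-fold higher and 8.02% reached 1.5-fold lower, so the members' 33.3% and 4.76% are to be read against a general lean towards higher values. At 2-fold, 12 members were higher and 1 was lower, against 9.07% and 1.93% of all named genes. The 12 were TRIML2, TRIM25, TRIM35, TRIM74, TRIM52, TRIM32, TRIM11, TRIM47, TRIM16, TRIM56, TRIM21 and TRIM8, and the 1 was TRIM22. The median difference of the members was 0.20 on the log2 scale (stretch minus static), against 0.06 for all named genes. Centred on 7 measured reference genes, the members' median was -0.33 and that of all named genes -0.47, with 9 members then 1.5-fold higher or more and 18 lower by as much. The 7 reference genes themselves differed by -0.22 to 1.72, so the size of this shift is uncertain. At 2-fold, a loess on level left 7 members higher, quantile normalization left 5 and centring on reference genes left 3.

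The largest difference was that of TRIML2, a SPRY-domain protein that lacks the RING finger of most relatives. Static cells gave a signal of 2.88 and stretched cells one of 6.50, which differ by 3.62 (12.3-fold), rank 4 of 14884 named genes. Under the 4 other scalings its difference stayed between 3.09 and 3.72. Its closest relative and genomic neighbour TRIML1 read 1.74 and 1.90, both low in the background range defined below. The promoters of TRIML2 are shown because this member stands furthest from the rest. RefSeq (GRCh38.p14) places one start window at chr4:188109554-188109853 and a downstream one at chr4:188105538-188105837, both on the minus strand, each running from 250 bases before to 50 bases after the start. Capitals mark a match to the AP-1 motif TGANTCA at bases 39 to 45 after the first start and to the TEAD motif GGAATG, on the opposite strand, at bases 44 to 49.
TRIML2, first start: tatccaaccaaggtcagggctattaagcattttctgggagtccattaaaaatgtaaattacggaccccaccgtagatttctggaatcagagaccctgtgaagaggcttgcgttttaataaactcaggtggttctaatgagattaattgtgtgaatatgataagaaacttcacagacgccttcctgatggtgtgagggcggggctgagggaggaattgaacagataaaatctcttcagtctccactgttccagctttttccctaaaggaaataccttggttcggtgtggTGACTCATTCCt
TRIML2, second start: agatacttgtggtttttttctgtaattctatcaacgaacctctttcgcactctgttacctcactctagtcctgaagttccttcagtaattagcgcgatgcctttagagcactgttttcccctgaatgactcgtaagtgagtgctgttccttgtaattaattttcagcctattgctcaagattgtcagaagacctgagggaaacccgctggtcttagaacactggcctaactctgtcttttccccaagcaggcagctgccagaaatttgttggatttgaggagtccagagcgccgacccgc
The letters of both matches overlap in the first window, and the second window holds neither. Of 35116 promoter windows of this length in the table, 7.71% held the AP-1 letters, 14.0% the TEAD letters and 31 (0.0883%) a pair that overlapped. Among the members, 48 had at least 1 window, 65 windows in all. Of these windows 11 held the AP-1 letters and 16 the TEAD letters, and TRIML2 alone held an overlapping pair. Apart from TRIML2, members with the AP-1 letters differed by -0.25 to 0.79 and those with the TEAD letters by -0.64 to 1.47. A match is a description of the letters and does not show that a factor binds. The motifs were chosen with the values known.

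**Figure D1:**
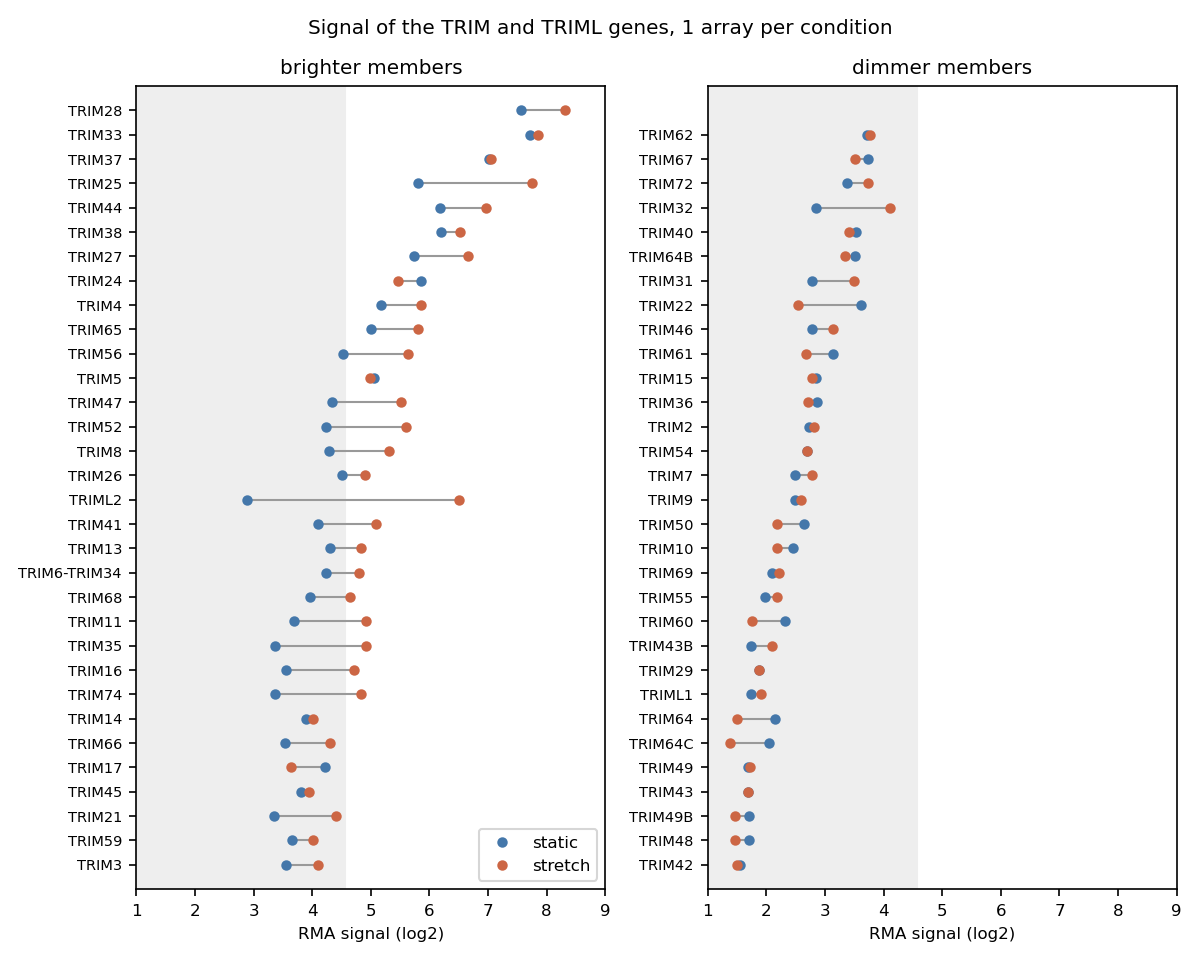
RMA signal (log2, x axis) of each of the 63 members (y axis, ordered by mean signal) on the static (blue) and stretched (red) array, 1 array each, with the background range up to 4.56 shaded. TRIML2 crosses from 2.88 to 6.50, TRIM25 from 5.80 to 7.75, and most dim members have both points close together.

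Signals were read against a background range because dim probe sets carry little signal from the gene. Its upper bound, 4.56, was the 95th percentile of 19 measured genes of unrelated tissues, whose differences between the arrays ran from -0.72 to 0.63 with a robust SD of 0.31, and 0 of which were 2-fold different. Their median level was 2.02, and noise at brighter signals cannot be judged from them. Over all named genes, the SD of the difference between arrays was 0.24 in the dimmest of 10 bins by level and 0.70 in the bin where it was largest, and real changes enter these values. Of the members, 38 lay within the range on both arrays, 11 above it on both, and 14 within it on the static and above it on the stretched array. The reverse, above it on the static and within it on the stretched array, was seen for 0 members. Of the 12 members at least 2-fold higher, TRIM25 lay above the range on both arrays, TRIM32 and TRIM21 lay within it on both, and the other 9 crossed it. Low RMA signals are compressed, so folds from such static values can understate a change, and picking the largest differences can overstate them. Signals of different probe sets are not amounts of RNA, so the order of members by signal is not an order of expression. Epithelial markers gave a partial check of the label: of 20 markers of A549 and lung epithelium, 10 were measured. KRT18 (10.29 and 11.0), GPX2 (9.35 and 8.86), TXNRD1, KRT8 and EPCAM exceeded the bound in both cultures. So did KRT7 (5.41 and 7.56), which differed by 2.15. The remaining 4, NKX2-1, SFTPB, SFTPC and the keratin KRT19 (3.77 and 3.78), had static and stretched signals inside the background range. The 3 measured fibroblast and 6 endothelial markers all lay within it, and of 5 immune markers CD68 (7.51 and 8.58) and CD14 (5.13 and 5.53) lay above it. In RNA from a whole culture, fewer cells with a transcript and less transcript per cell cannot be told apart.

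The lean towards higher values depended on level. All named genes were split by the mean of both arrays into a dim class below 2.52, the median of all values, a bright class from the background bound up, and an intermediate class. In the bright class, 12 of 19 members reached 1.5-fold higher and 0 lower, where 37.3% and 4.45% of all named genes of that class were. Of these 19 members, 8 had a static signal within the background range, among them 6 of the 12 higher ones, which entered the class through their stretched signal, so nothing is read from this count. The median difference of the 19 members was 0.79, against 0.39 for all named genes of the class, and is bound by the same limit. In the intermediate class, 9 of 29 members reached 1.5-fold higher and 1 lower, with 19.6% and 11.2% of all named genes of that class, and the medians were 0.29 and 0.06. In the dim class, 0 of 15 members reached 1.5-fold higher and 2 lower, with 1.94% and 8.64% of the genes of that class, and the medians were -0.06 and -0.13. The member medians stood above those of all named genes in each class. Because the mean that sets the class includes the stretched signal, no lean of the family is read from these medians. For the bright members, a loess on level gave a median of 0.45, quantile normalization one of 0.40 and centring on reference genes one of 0.26.

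**Figure D2:**
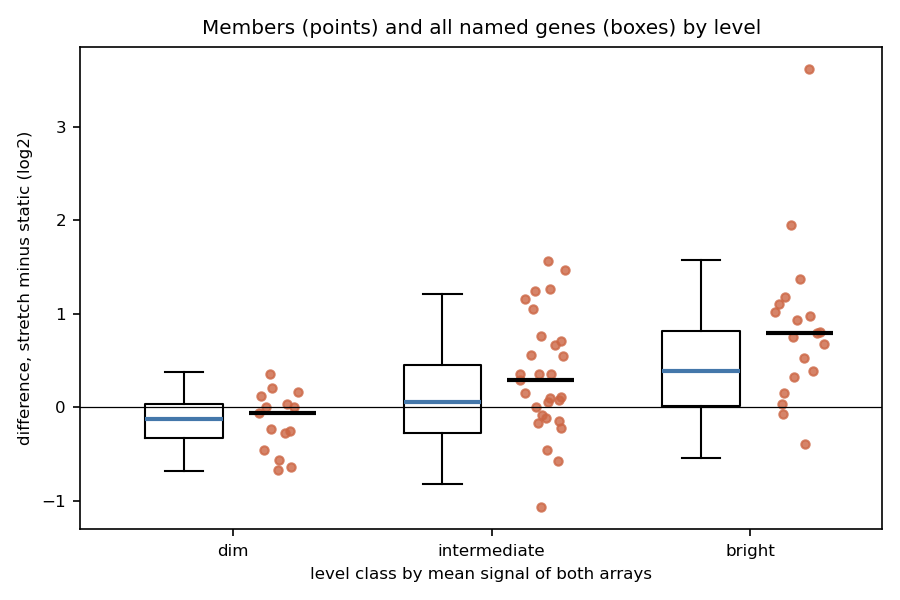
Log2 difference (stretch minus static, y axis) of the members (red points, black line at their median) beside all named genes (boxes from the lower to the upper quartile, blue line at the median, whiskers at the 5th and 95th percentiles) in the dim, intermediate and bright level class. Members' medians are -0.06, 0.29 and 0.79, and those of all named genes -0.13, 0.06 and 0.39.

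**Figure D3:**
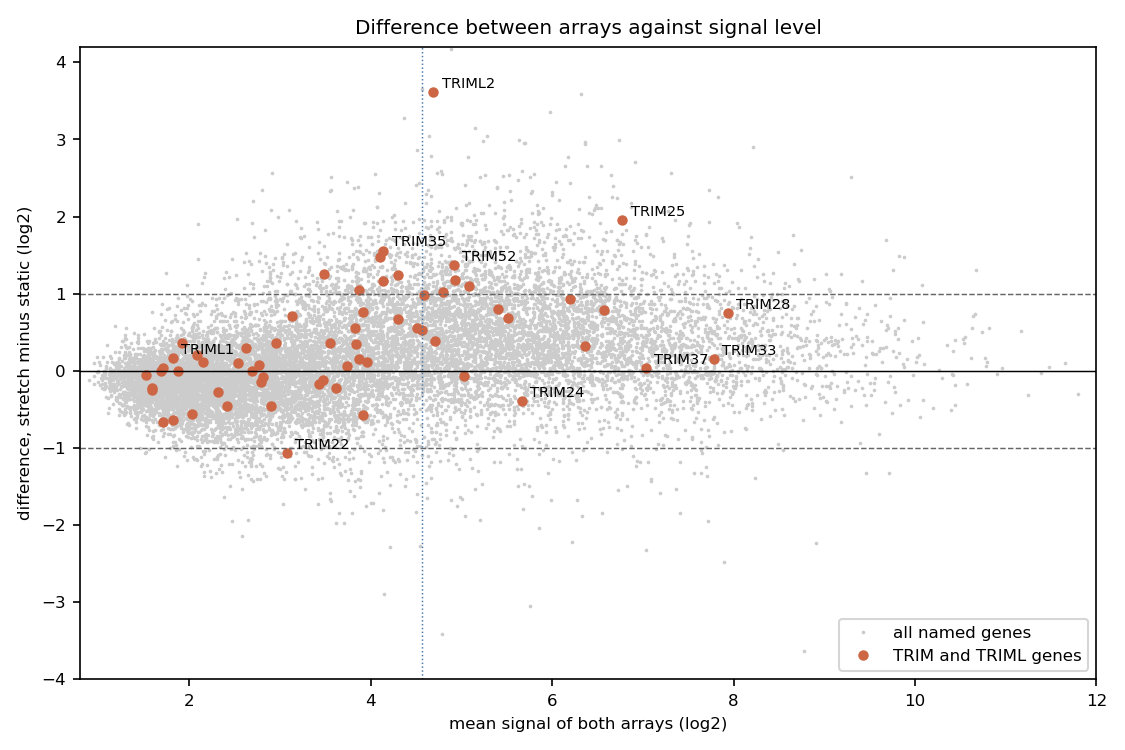
Log2 difference (stretch minus static, y axis) against the mean signal of both arrays (x axis, log2) for all named genes (grey) and the members (red). Dashed lines mark 2-fold, the dotted line marks the background bound of 4.56, and 2 named genes lie outside the y axis. TRIML2 (3.62) stands apart from the other members, and TRIM25 (1.95) is the highest among members with both signals above the bound.

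The RING and SPRY class, the largest in the family, had 32 measured members. Of these, 10 stood 1.5-fold or more higher and 3 lower by as much, beside the 20.7% and 8.02% of all named genes, and their median difference was 0.14. TRIM25, the ligase that activates the RNA sensor RIG-I, went from 5.80 to 7.75, a difference of 1.95 (3.86-fold). This was the only member of the 12 at 2-fold with both signals above the background range, and under the 4 other scalings its difference lay between 1.42 and 2.05. TRIM35, a ligase linked to pyruvate kinase regulation, went from 3.36 to 4.92 (1.56). TRIM11, which promotes the clearance of misfolded proteins, went from 3.68 to 4.92 (1.24), and TRIM47, a ligase described in glioma and brain, from 4.34 to 5.52 (1.18). TRIM21, the cytosolic antibody receptor also known as the Ro52 autoantigen, went from 3.35 to 4.40 (1.05). The rest of the 10 were TRIM41 (0.98), TRIM27 (0.93), TRIM65 (0.80), TRIM4 (0.68) and TRIM68 (0.67). Each of these 5 had a higher signal on the stretched array by less than 2-fold. For TRIM27 this holds only for the probe set with the highest mean, and the median difference of its 8 probe sets was 2.53.

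As deposited, the 3 members at least 1.5-fold lower belonged to the RING and SPRY class. TRIM22, an interferon-inducible antiviral ligase, read 3.61 in static and 2.54 in stretched cells, so that its difference was -1.07. Both signals lay within the background range. Under the 4 other scalings it stayed between -1.60 and -0.97. TRIM64C (2.05 and 1.38, a difference of -0.67) and TRIM64 (2.14 and 1.5, a difference of -0.64), members of a primate-expanded group, were the other 2 at least 1.5-fold lower. Both signals of each were below the median of all values. After quantile normalization or loess the 3 members so far lower were TRIM22, TRIM17 and TRIM24 of the PHD class, 1 of which is among the 3 as deposited. TRIM17 (-0.58), described in neurons, and TRIM60 (-0.56) stood just inside 1.5-fold. TRIM64B, TRIM64 and TRIM64C are close copies of one another, as are TRIM43 with TRIM43B and TRIM49 with TRIM49B and TRIM48, so their signals may share RNA and are uncertain one by one. These 8 genes read between 1.38 and 3.51 on both arrays and differed by -0.67 to 0.36. The remaining members of the class were TRIM26 (0.39), TRIM72 (0.36), a membrane repair protein of muscle, TRIM38 (0.32), TRIM7 (0.29), TRIML1 (0.16), TRIM69 (0.12), TRIM62 (0.06), TRIM5 (-0.07), TRIM15 (-0.08), TRIM10 (-0.28) and TRIM50 (-0.46). None of these reached 1.5-fold. The readthrough transcript TRIM6-TRIM34, which was placed in no class, stood at 0.56.

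TRIM27, a ligase first found as a fusion partner of the RET kinase, was measured by 8 probe sets. All 8 were higher on the stretched array, by 0.93 to 2.63, with a median of 2.53. Their static signals ran from 3.46 to 5.73 and their stretched signals from 5.82 to 6.66. The brightest probe set, which stands for the gene by rule, gave the smallest difference (5.73 and 6.66), so TRIM27 counts as higher by 0.93 here and by 2.16 with its probe sets averaged. The probe sets thus disagree mainly on the static array. The other members with several probe sets lay within the background range. TRIM31, a ligase that acts on the adaptor MAVS, was higher in 5 of 5 probe sets, by 0.68 to 0.74. TRIM10 was lower in 8 of 8, by -0.28 to -0.24, and TRIM15 in 8 of 8, by -0.13 to -0.08. TRIM40 was lower in 6 of 8 and higher in 2, between -0.29 and 0.16. Some probe sets of a gene held identical values on both arrays (4 distinct pairs among 8 for TRIM10 and for TRIM15), so probe sets are not independent measurements.

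**Figure D4:**
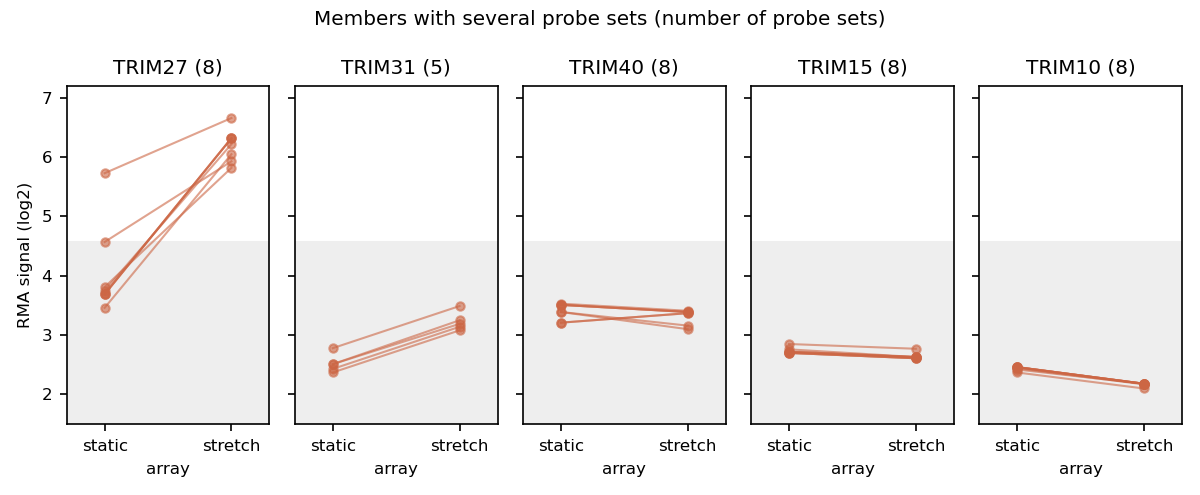
RMA signal (log2, y axis) on the static and stretched array (x axis) of every probe set of the 5 members with more than 1, each line a probe set and the shading the background range up to 4.56. The 8 lines of TRIM27 start between 3.46 and 5.73 and end between 5.82 and 6.66, while those of TRIM40, TRIM15 and TRIM10 stay nearly level.

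Members with the tripartite motif alone and no named C-terminal domain had the highest class median, 1.02 over 7 genes, with 5 at least 1.5-fold higher and 0 lower, beside 20.7% and 8.02% of all named genes. The median was 0.70 after quantile normalization and 0.49 after centring on reference genes. TRIM74, a truncated relative of TRIM50, went from 3.37 to 4.84 (1.47). Its signal is uncertain because the near-identical TRIM73 could contribute. TRIM52, a ligase with an expanded RING that promotes NF-κB activity, went from 4.23 to 5.60 (1.37). TRIM56, a ligase of the STING pathway, went from 4.53 to 5.63 (1.10), and TRIM8, which ubiquitinates the kinase TAK1 in TNF signalling, from 4.29 to 5.31 (1.02). TRIM31 stood at 0.71 (2.78 and 3.49), TRIM40, a gut-enriched member, at -0.12 (3.53 and 3.41) and TRIM61 at -0.46 (3.13 and 2.67). The 4 genes at 2-fold lay within the background range on the static array and above it on the stretched array. The other 3 lay within it on both arrays. TRIM52, TRIM56 and TRIM8 were in the bright class, where 37.3% of all named genes were at least 1.5-fold higher.

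The members listed as lacking a RING finger numbered 5, with a median of 0.79, which the loess put at 0.45, quantile normalization at 0.40 and reference centring at 0.26. Apart from TRIML2, TRIM16, which takes part in the handling of damaged lysosomes, went from 3.55 to 4.71 (1.16). TRIM44, a ubiquitin-binding protein that stabilises other TRIM proteins, went from 6.18 to 6.97 (0.79), above the background range on both arrays. TRIM14, an adaptor of the RIG-I pathway, read 3.90 and 4.01 (0.11), and TRIM29, a DNA damage and epithelial cancer gene, read 1.87 on both arrays. Signals of TRIM14 and TRIM29 lay within the background range.

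The PHD and bromodomain cofactors of transcription had different signs. TRIM28, the corepressor that KRAB zinc finger proteins recruit, had the highest mean signal of the family and went from 7.56 to 8.31, a difference of 0.75, which was 0.22 when centred on reference genes. TRIM33, a partner of SMAD proteins, read 7.71 and 7.86 (0.15), and its sign turned after loess (-0.15), quantile normalization and reference centring. TRIM24, a nuclear receptor cofactor and p53 ligase, was lower by sign under all 4 other scalings. Its signals were 5.86 and 5.47, a difference of -0.39 as deposited and -0.75 after a loess on level. TRIM66, the testis-enriched relative, read 3.54 and 4.30 (0.76), within the background range on both arrays. So 2 of the 4 were at least 1.5-fold higher and 0 lower as deposited, beside 20.7% and 8.02% of all named genes. The bright class held 3 of the 4, and in it 37.3% of all named genes were higher by as much. The median of the 4 was 0.45 as deposited. The median was 0.15 after loess, with TRIM66 still past 1.5-fold higher and TRIM24 then past 1.5-fold lower, and 0.195 after quantile normalization, with 0 higher and 1 lower.

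The NHL repeat class, whose members bind RNA and cytoskeletal proteins, had 3 measured genes. TRIM32, the ligase mutated in a limb-girdle muscular dystrophy, went from 2.85 to 4.11 (1.26), within the background range on both arrays. TRIM3 read 3.55 and 4.10 (0.55) and TRIM2 read 2.73 and 2.81 (0.08), both below 1.5-fold. Beside 20.7% higher and 8.02% lower among all named genes, 0 of 4 members of the microtubule-linked COS and FN3 class were past 1.5-fold. Their signals on both arrays lay between 2.49 and 3.73, with TRIM46 at 0.36, TRIM9 at 0.10, TRIM36 at -0.15 and TRIM67 at -0.22. These genes are best known from neurons. Of the muscle RING finger genes, TRIM55 read 1.98 and 2.18 and TRIM54 read 2.69 on both arrays. Members with other C-terminal domains had 0 of 5 past 1.5-fold. Against those shares of all named genes, 0 in a class of 4 or 5 genes says little. TRIM37, a histone ligase with a MATH domain, was among the brightest and read 7.02 and 7.05 (0.03). TRIM13, anchored in the endoplasmic reticulum, stood at 0.53, TRIM59 at 0.35, TRIM45 at 0.15 and TRIM42 at -0.06.

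**Figure D5:**
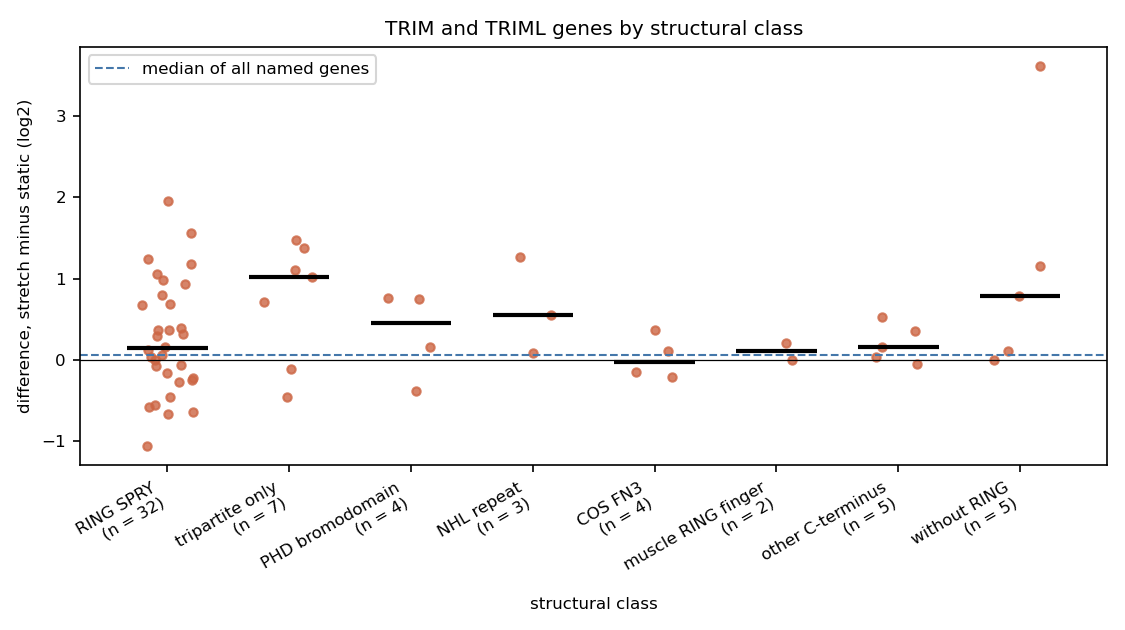
Log2 difference (stretch minus static, y axis) of each member by structural class (x axis), with a black line at the class median and a dashed line at the median of all named genes (0.06). Class medians run from -0.025 (COS and FN3, n = 4) to 1.02 (tripartite only, n = 7); after centring on reference genes the medians of the RING SPRY, PHD bromodomain, muscle RING finger and other C-terminus classes, positive here, are negative.

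Grouped by function, members known from antiviral sensing, from RIG-I and STING signalling in the main, had a median of 0.74 over 8 measured genes. Of these, 5 were at least 1.5-fold higher and 0 lower, beside 20.7% and 8.02% of all named genes. The bright class held 6 of the 8, and in it 37.3% of all named genes were higher by as much. The 5 were TRIM25, TRIM56, TRIM21, TRIM65 (5.00 and 5.80), which ubiquitinates the sensor MDA5, and TRIM4 (5.17 and 5.85), another RIG-I ligase. The median was 0.39 after loess and 0.31 after quantile normalization. Of 7 measured members that interferon induces, TRIM25 and TRIM21 were at least 2-fold higher and TRIM22 at least 2-fold lower. Over all named genes, 9.07% were 2-fold higher and 1.93% lower. Both signals of TRIM21 (3.35 and 4.40) and of TRIM22 (3.61 and 2.54) lay within the background range. The other 4 stayed below 1.5-fold, among them TRIM38 (6.20 and 6.52) and TRIM5 (5.06 and 4.99), the retroviral capsid restriction factor. The median of the 7 was 0.12. Members that modulate TNF receptor or NF-κB signalling had a median of 0.425 over 10 measured genes, with 4 at least 1.5-fold higher and 0 lower, and 6 of the 10 were in the bright class. Those 4 were TRIM52, TRIM21, TRIM8 and TRIM27. After quantile normalization the median of this group was 0.07 and after centring on reference genes -0.105. The lists share members, TRIM21 and TRIM5 being in all 3.

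Promoter windows of 3 of these immune members are shown because TRIM25, TRIM21 and TRIM5, all in the interferon-induced group, differed by 1.95, 1.05 and -0.07. The windows come from RefSeq (GRCh38.p14), all on the minus strand, at chr17:56914000-56914299 for TRIM25, chr11:4393653-4393952 for TRIM21 and chr11:5685025-5685324 for TRIM5. Capitals mark the interferon response letters (GAAA, any 2 bases, GAAA) on either strand in TRIM21 and TRIM5, the E-box CACGTG in TRIM25, and the AP-1 and TEAD letters in TRIM5.
TRIM25: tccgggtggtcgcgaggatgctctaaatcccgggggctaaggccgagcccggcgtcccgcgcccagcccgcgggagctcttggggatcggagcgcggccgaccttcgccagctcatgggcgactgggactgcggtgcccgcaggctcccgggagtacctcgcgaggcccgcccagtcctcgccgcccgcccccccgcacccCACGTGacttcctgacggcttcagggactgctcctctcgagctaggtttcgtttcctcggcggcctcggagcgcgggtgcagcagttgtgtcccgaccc
TRIM21: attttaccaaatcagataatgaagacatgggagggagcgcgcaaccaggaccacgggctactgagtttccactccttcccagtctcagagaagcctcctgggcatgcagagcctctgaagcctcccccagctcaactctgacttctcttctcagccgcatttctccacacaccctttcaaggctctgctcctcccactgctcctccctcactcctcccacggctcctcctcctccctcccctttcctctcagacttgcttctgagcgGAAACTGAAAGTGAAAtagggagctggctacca
TRIM5: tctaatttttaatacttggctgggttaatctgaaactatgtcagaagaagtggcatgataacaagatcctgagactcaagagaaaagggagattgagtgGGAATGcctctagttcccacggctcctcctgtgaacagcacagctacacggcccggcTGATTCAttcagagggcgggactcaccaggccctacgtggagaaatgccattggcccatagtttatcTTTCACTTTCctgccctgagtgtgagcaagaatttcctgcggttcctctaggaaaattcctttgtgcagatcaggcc
In TRIM21, overlapping matches stood at bases 18 to 27 and 24 to 33 after the start. In TRIM5 the match stood at bases -27 to -18, and the AP-1 and TEAD letters did not overlap. The TRIM25 window held the E-box at bases -49 to -44 and no run of the interferon letters as searched. Of all windows, 3.57% held the interferon letters and 7.26% the E-box. The E-box was in 3 of the members' windows (4.62%), in TRIM25, TRIM46 and TRIM66, which differed by 1.95, 0.36 and 0.76. Of the members' 65 windows 9 held the interferon letters, in TRIM14, TRIM16, TRIM2, TRIM21, TRIM26, TRIM44, TRIM5, TRIM64C and TRIM69, whose differences ran from -0.67 to 1.16. The loose NF-κB letters (GGG, any 5 bases, CC) were in 36 of these windows and in 58.7% of all, which separates little.

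Neighbouring members differed from each other in some places and shared a sign in others. By RefSeq order, 26 members formed 10 groups with at most 2 other protein-coding genes between neighbours. On chromosome 4, TRIML2 stood at 3.62 and TRIML1 at 0.16. On chromosome 1, TRIM11 stood at 1.24 and TRIM17 at -0.58, although they are neighbours. On chromosome 11, TRIM22 stood at -1.07 beside TRIM5 at -0.07 and TRIM6-TRIM34 at 0.56. TRIM47 (1.18) and TRIM65 (0.80) on chromosome 17 were both higher, as were TRIM52 (1.37), TRIM41 (0.98) and TRIM7 (0.29) on chromosome 5, where TRIM7 turned to -0.24 after centring on reference genes. TRIM60 (-0.56) and TRIM61 (-0.46) on chromosome 4 were both lower. On chromosome 6, TRIM31 (0.71) and TRIM26 (0.39) were higher and TRIM15 (-0.08), TRIM40 (-0.12) and TRIM10 (-0.28) lower. The remaining groups were TRIM43B (0.36) with TRIM43 (0), TRIM49 (0.03) with TRIM64B (-0.17) and TRIM64 (-0.64), and TRIM49B (-0.25) with TRIM64C (-0.67). Both signals of TRIML1, TRIM17, TRIM22, TRIM7, TRIM60, TRIM61 and every gene of the remaining groups lay within the background range. By chromosome, the 5 members on chromosome 17 had a median of 1.16 and the 15 on chromosome 11 a median of 0. These chromosomes were picked from all with members, and other genes on them were not summarised. Several of the 15, such as TRIM49 and TRIM64, were in the dim class and none of the 5 was, so position and signal level cannot be told apart.

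Genes linked to the family, and ubiquitin-conjugating enzymes in general, were taken from fixed lists. Of 20 tripartite-motif or SPRY genes that carry other symbols, 15 were measured, with 4 at least 1.5-fold higher and 2 lower and a median of 0.12, beside 20.7% and 8.02% of all named genes. SPRYD3 went from 2.50 to 4.34 (1.84) and SPRYD4 from 4.10 to 5.17 (1.07), while MID2, a microtubule-associated ligase, went from 6.24 to 5.52 (-0.72) and SPRYD7 from 4.89 to 5.59 (0.70). PML, the nuclear body protein of this family, stood at 0.13 and MID1, the relative of MID2, at 0.48, both chosen after their values were seen. Of 28 ubiquitin-conjugating (E2) enzymes, a general list not limited to partners of TRIM ligases, 19 were measured and had a median of -0.02. Listed but not among the 19 were UBE2D1, UBE2D2, UBE2D3 and UBE2W. Of the 19, 4 were at least 1.5-fold higher and 1 lower, beside 20.7% and 8.02% of all named genes. The bright class held 14 of the 19, and in it 37.3% of all named genes were higher by as much. After loess, 3 of the 19 were higher and 6 lower, with a median of -0.28. UBE2O, which also acts as a ligase, went from 4.53 to 6.21 (1.68), UBE2E1 from 2.67 to 3.95 (1.28), UBE2G2, of endoplasmic reticulum protein degradation, from 4.92 to 6.02 (1.10) and UBE2Z from 7.04 to 7.85 (0.81).

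A list of 27 genes held silencing machinery that TRIM28 recruits and other genes more loosely linked to it. It had 21 measured genes, and SETDB1 was not among them. The 21 had a median of 0.33, with 6 at least 1.5-fold higher and 1 lower, beside 20.7% and 8.02% of all named genes. After loess the median was 0.02, with 2 then higher and 2 lower. Of the 21, 18 were in the bright class, where 37.3% of all named genes were at least 1.5-fold higher and 4.45% lower. DNMT3B, a DNA methyltransferase, went from 3.19 to 4.84 (1.65), MPHOSPH8, of the HUSH complex, from 3.66 to 4.58 (0.92), DNMT1, the maintenance methyltransferase, from 6.44 to 7.32 (0.88) and MORC2 from 4.85 to 5.70 (0.85). Of 24 genes of RIG-I and STING signalling, 19 were measured, with 6 at least 1.5-fold higher, 1 lower and a median of 0.22, which was -0.125 after quantile normalization, with 1 then higher and 3 lower. Of the 19, 13 were in the bright class, and over all named genes 20.7% were at least 1.5-fold higher and 8.02% lower. MAVS, the mitochondrial adaptor of RIG-I and MDA5, went from 5.98 to 7.0 (1.02), the ubiquitin-binding receptor OPTN from 5.10 to 6.03 (0.93) and the deubiquitinase CYLD from 4.32 to 5.09 (0.77), while TBKBP1, an adaptor of the kinase TBK1, went from 5.35 to 4.18 (-1.17). RIGI, the sensor that TRIM25 ubiquitinates, read 4.54 and 4.78, a difference of 0.24. It was chosen after its values were seen.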

How the data were processed

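RNA of A549 cells was measured on 2 arrays, 1 static and 1 stretched, grouped by source name. The values as deposited are on a log2 scale, with 53617 probe sets per array. The submitters' processing notes name RMA, the robust multi-array average, a method that subtracts background, normalizes and combines probes into a probe set value. Which program and chip definition were used is not given in the sources used here. Columns of one RMA run usually share a distribution, but the sorted values of these differed by up to 0.45, so how the arrays were scaled to each other is unknown. RMA gives no detection calls, and the number of arrays limits the precision.

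Platform annotation gave 1 symbol to 16098 probe sets and several to 0, while 37519 are unnamed here. Of the 14884 genes, 779 had several probe sets, and the one with the highest mean stood for the gene. Differences are stretch minus static. Main counts used no filter on level, and 49 of 63 members had a value at or above the median of all values. The members, lists, rules and thresholds were chosen with earlier results of these data known. Structural classes and function lists were written from general knowledge and not checked against a database, so the class of a single member, such as TRIM42, is uncertain. Values are given for members at least 2-fold different, the 12 with the highest mean, the 4 largest differences per class and list, and members chosen for their role. Alternatives were 4 scalings (array medians, quantile, loess with span 0.3, reference genes), the mean of all probe sets, level filters, the mean in place of the median and leaving out readthrough symbols. Promoter windows are from RefSeq (GRCh38.p14), and 15 members had none. Calculations were tested on simulated data and used Python 3.11.15, with statsmodels 0.14.6 for the loess, pandas 2.3.3 and numpy 2.4.6.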

Additional observations from a re-analysis of the deposited data

How the results depend on the processing

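No paired analysis was possible because each condition has 1 array, and no replicate could be left out. A value is called moved when a count differed by more than 1.5 times, or a median by more than 0.31, the robust SD of the unrelated-tissue genes. The members' median minus that of all named genes was 0.14 as deposited, 0.18 after quantile normalization and 0.19 after loess, while both centrings shift all genes alike and leave it at 0.14. All 13 members that were 2-fold different kept their sign under these scalings. The mean of all probe sets and leaving out the readthrough symbol moved no count or median.

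The 7 reference genes differed by -0.22 to 1.72, and all 7 were in the bright class. In that class the median difference of all named genes was 0.39, so a shift taken from bright genes was also applied to dim ones. Every difference is 0.53 lower when centred on reference genes. This gave 9 members at least 1.5-fold higher and 18 lower, 3 at 2-fold higher and 5 lower, and a median of -0.33. Under it the medians were -0.39 (RING and SPRY), 0.49 (tripartite only), -0.08 (PHD), 0.02 (NHL), -0.555 (COS), -0.43 (muscle), -0.38 (other C-terminus), 0.26 (without RING), -0.41 (interferon-induced), 0.21 (antiviral) and -0.105 (TNF and NF-κB). Those of the other genes were -0.41 (other symbols), -0.55 (E2), -0.20 (TRIM28 machinery) and -0.31 (RIG-I), and those of the dim, intermediate and bright members -0.59, -0.24 and 0.26. Centring on array medians gave 1 member at least 1.5-fold lower and 0 at 2-fold lower. Quantile normalization gave 5 members at 2-fold higher, and medians of 0.70 (tripartite only), 0.40 (without RING), 0.31 (antiviral), 0.066 (TNF and NF-κB), -0.125 (RIG-I) and 0.40 (bright members). The loess gave 7 at 2-fold higher, and 0.45 (without RING), 0.39 (antiviral), 0.018 (TRIM28 machinery) and 0.45 (bright members). Keeping members with a mean at or above the median of all values left 1 at least 1.5-fold lower. At the background bound, 12 were at least 1.5-fold higher and 0 lower, 6 at 2-fold higher and 0 lower, and the median was 0.79, against 0.39 for all named genes so kept. Of those 6, 5 had a static signal within the background range. What else moved these values was not tested.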
